A study of Mus musculus with 8 samples.

Results

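Histone lysine methyltransferases, the subunits of their complexes and histone lysine demethylases were read in mouse embryonic stem (ES) cells, on 8 one-colour Affymetrix arrays. The genes were taken by exact symbol from a list of 40 in the array's annotation, each read through its brightest probe set over the 8 arrays, and 38 of the 40 were measured, among 18193 genes in all. Suv39h1 and Ash1l had no probe set with a single symbol and were not analysed here. The cells carried the strain label Oct4-Gip and passage label 25 in all 8 samples. Every sample was lipofected with an esiRNA, a pool of short interfering RNAs cut from a longer double-stranded RNA, and taken on day 4. In 4 samples the esiRNA was against luciferase, the control for transfection, and in the other 4 it was against Ctr9. Ctr9 encodes a scaffold of the Paf1 complex, which accompanies RNA polymerase II along genes and is known to be needed for ubiquitination of histone H2B and for the methylation of H3K4 and H3K79 that depends on it. The design addresses how the transcripts of ES cells differ after Ctr9 esiRNA. All values below are log2 probe set signals, and all differences are Ctr9 esiRNA minus luciferase esiRNA on that scale.

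Methyltransferases, often called writers, place methyl groups on lysines of the histone tails, and demethylases, called erasers, remove them. Methylation of H3K4 marks active promoters and enhancers, that of H3K36 and H3K79 marks transcribed gene bodies, and that of H3K9 and H3K27 marks silent chromatin. The H3K4 writers of the SET1 and MLL families work as complexes, in which Wdr5, Rbbp5, Ash2l and Dpy30 form a core shared by all of them. In ES cells these marks are known for holding lineage genes silent and pluripotency genes active.

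The arrays were close in overall signal, with upper quartiles between 8.10 and 8.15, and correlated at 0.997 to 0.998 within groups and 0.992 to 0.994 between them. The targeted transcript changed little. On the brightest of 5 Ctr9 probe sets, luciferase arrays read 10.12 to 10.26 and Ctr9 esiRNA arrays 10.07 to 10.13, a difference of -0.09 (SE 0.0466) that did not pass (exact two-sided permutation p = 0.0857, with 0.0286 the smallest possible). The next 2 probe sets in brightness fell by 0.15 and 0.18 (limma adjusted p = 0.0398 and 0.0279), a dim one rose by 0.29 (0.0228), and the mean of all 5 differed by 0.0273, so groups are named by their labels. Pluripotency markers stood far above the array median in all samples, the dimmest at a mean of 11.23. Of 10 such markers, 6 were lower and 2 higher in the Ctr9 esiRNA arrays, and their summed linear signal was 69588 to 71934 in the luciferase arrays and 58412 to 61057 in the Ctr9 esiRNA arrays. Of 12 trophectoderm markers, 10 were higher and none lower (summed linear signal 2354 to 2745 against 5876 to 6340), of 10 primitive endoderm markers 5 were higher and 1 lower (4258 to 4769 against 5238 to 5638), and of 17 feeder fibroblast markers 6 were higher and none lower (945 to 1012 against 1169 to 1236). Among the trophectoderm markers Krt8 rose the most, from a mean of 8.21 to 10.82, then Krt18, from 8.35 to 10.74. These keratins weigh heavily in that sum. Elf5 and Tfap2c did not pass, nor did Gata4, Gata6, Sox17 and Pdgfra among the primitive endoderm markers. Of the fibroblast markers, 9 read below the array median of 5.75. The part of these cell states in the changes below was not tested. In such bulk samples fewer cells of a type and less RNA per cell cannot be told apart. Nothing in the labels says that the 4 samples of a group are separate cultures, so the tests reflect a spread that may be only technical.

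Of the 38 measured genes, 14 were lower and 9 higher in the Ctr9 esiRNA arrays, and 15 did not pass (limma, Benjamini-Hochberg adjusted p under 0.05 over all 45037 probe sets). That is 60.5% of the members, against 30.8% of all genes, with 36.8% against 15.0% lower and 23.7% against 15.8% higher. The members were brighter than most genes, their means running from 7.47 to 13.69, and among the 8150 genes at least as bright as the dimmest member 45.7% passed, 24.0% lower and 21.6% higher. Luciferase and Ctr9 esiRNA values were fully separate in 26 of the 38 members, against 36.6% of all genes. That share was not taken for genes as bright as the members. All 23 members that passed were among those 26, as were 5348 of all 5600 genes that passed among the genes with separate groups. Changes were modest. The median change of the members that passed was 1.22-fold, against 1.24-fold for all genes that passed. None reached 2-fold, and only Setd7 and Kmt2c reached 1.5-fold. The median difference over the 38 members was -0.059, against 0.0036 over all genes.

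**Figure D1:**
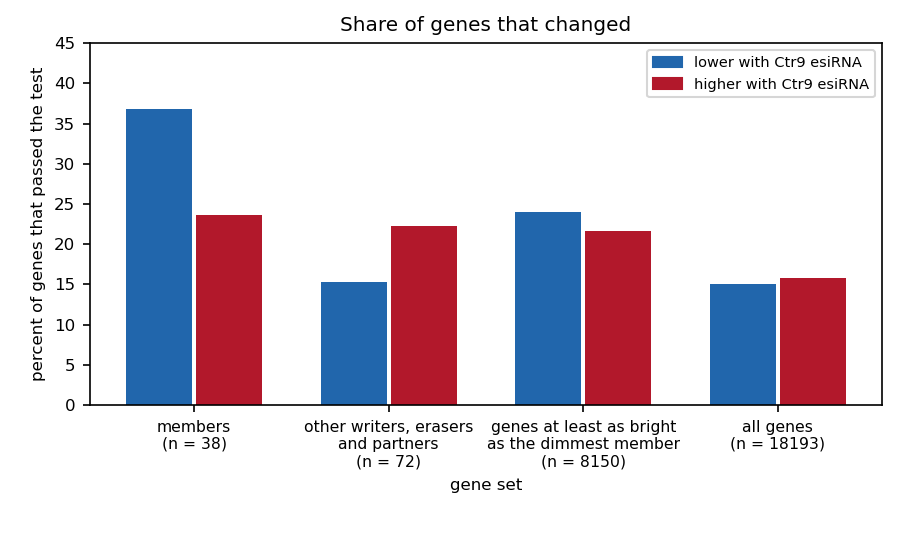
Percent of genes lower (blue) or higher (red) with Ctr9 esiRNA for the 38 members, 72 other genes of histone lysine methylation, the 8150 genes at least as bright as the dimmest member and all 18193 genes. The member bars stand at 36.8% and 23.7%, against 24.0% and 21.6% for the genes at least as bright as the dimmest member.

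**Figure D2:**
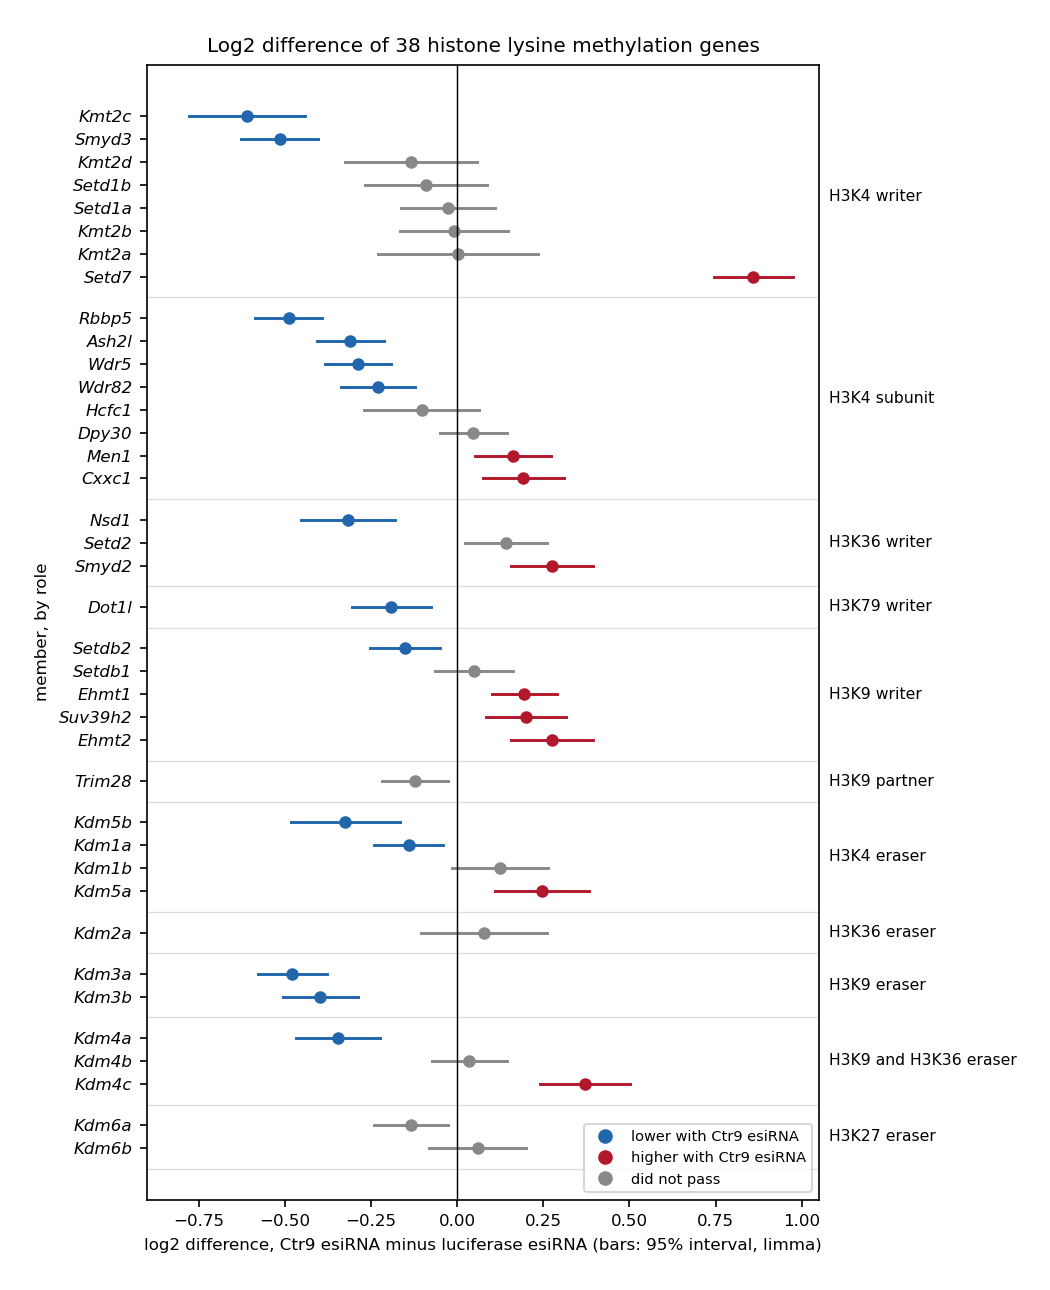
Log2 difference of each of the 38 members (points) with its 95% interval from limma (bars), grouped by target residue and role. The points run from -0.61 for Kmt2c to 0.86 for Setd7, with members that fell and members that rose among the H3K4, H3K9 and H3K36 writers.

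Among the 6 catalytic subunits of the SET1 and MLL families, only Kmt2c passed. Kmt2c, the MLL3 enzyme that methylates H3K4 at enhancers, read 9.18, 9.43, 9.51 and 9.30 in luciferase arrays 1 to 4 and 8.69, 8.70, 8.73 and 8.87 in Ctr9 esiRNA arrays 1 to 4. Every Ctr9 esiRNA value lay below every luciferase value, and Kmt2c fell by 0.61 (limma adjusted p = 0.000222, SE 0.0752), a loss of 34.5%. Its other 3 probe sets fell too, by 0.63, 0.74 and 0.49 in order of brightness. Kmt2d, the closest relative of Kmt2c and also an enhancer enzyme, read 8.59, 8.91, 9.03 and 8.93 in luciferase arrays 1 to 4 and 8.65, 8.76, 8.79 and 8.72 in Ctr9 esiRNA arrays 1 to 4. These groups overlapped, with luciferase array 1 lowest of all 8 and the other 3 luciferase arrays highest. The Kmt2d difference was -0.13 (95% interval -0.32 to 0.06, limma adjusted p = 0.312), and its other probe set lay on the opposite side of 0, at 0.18 (limma adjusted p = 0.153, SE 0.0832). It passed when that array was left out (limma adjusted p = 0.0210, within a range of 0.0210 to 0.913 over 20 alternatives). Setd1a and Setd1b, the enzymes of the SET1 complexes that carry out most trimethylation of H3K4, differed by -0.03 (95% interval -0.16 to 0.11, limma adjusted p = 0.801) and -0.09 (95% interval -0.27 to 0.09, limma adjusted p = 0.473). Kmt2a and Kmt2b, the MLL1 and MLL2 enzymes, differed by 0.00223 (95% interval -0.23 to 0.23, limma adjusted p = 0.991) and -0.00879 (95% interval -0.16 to 0.15, limma adjusted p = 0.950). Kmt2a varied the most among the members within the luciferase arrays, from 7.62 to 8.06, so a change of up to 0.23 in either direction lies within its interval.

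**Figure D3:**
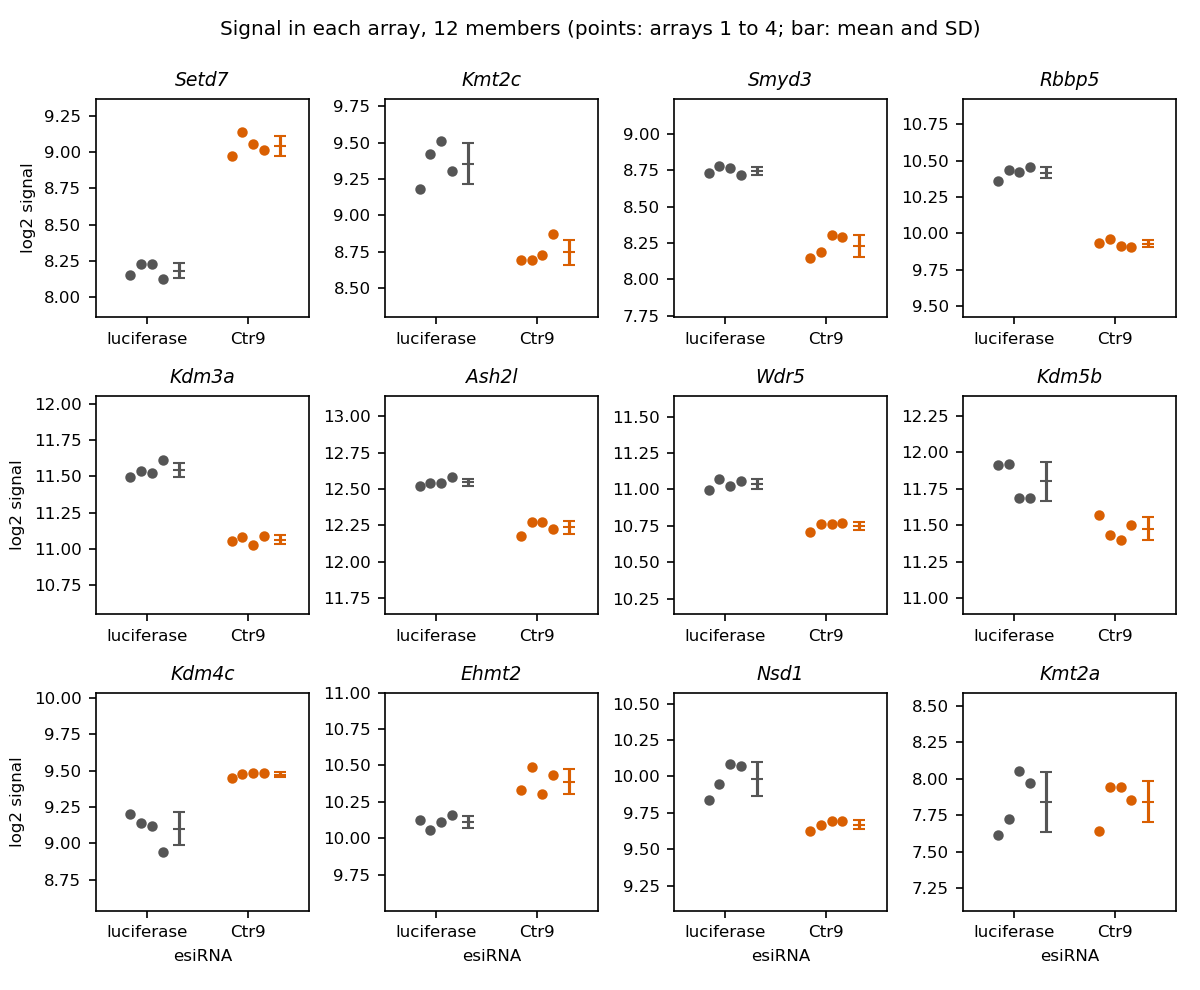
Log2 signal (y axis) of 12 members in each of the 4 luciferase and 4 Ctr9 esiRNA arrays (points), with mean and SD beside them; all panels span the same 1.5 log2 units. The groups stand apart in 11 of the panels and overlap for Kmt2a, and Kdm5b shows the luciferase arrays in 2 pairs.

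The shared core of these complexes fell in 3 of 4 subunits, where 24.0% of genes at least as bright as the dimmest member fell. Rbbp5, which links the core to the catalytic SET domain, read 10.36, 10.44, 10.42 and 10.45 in luciferase arrays 1 to 4 and 9.93, 9.96, 9.91 and 9.91 in Ctr9 esiRNA arrays 1 to 4, and fell by 0.49 (limma adjusted p = 2.44e-05, SE 0.0432). Ash2l, which partners Rbbp5 in stimulating the enzyme, read 12.52, 12.54, 12.54 and 12.58 in luciferase arrays 1 to 4 and 12.18, 12.27, 12.27 and 12.22 in Ctr9 esiRNA arrays 1 to 4, and fell by 0.31 (limma adjusted p = 0.000560, SE 0.0442). Its dimmer probe set fell further, by 0.65. Wdr5, the scaffold that holds the core to the catalytic subunit, read 10.99, 11.07, 11.03 and 11.06 in luciferase arrays 1 to 4 and 10.71, 10.77, 10.76 and 10.77 in Ctr9 esiRNA arrays 1 to 4, and fell by 0.29 (limma adjusted p = 0.000768, SE 0.0431), with a second probe set at -0.24. For these 3 genes the spread within a group was at most 0.045 (SD, n = 4), and no values of the groups overlapped. Dpy30, the small subunit that binds Ash2l, read 12.21, 12.18, 12.14 and 12.22 in luciferase arrays 1 to 4 and 12.23, 12.25, 12.26 and 12.19 in Ctr9 esiRNA arrays 1 to 4. Its groups overlapped, at a difference of 0.05 (95% interval -0.05 to 0.14, limma adjusted p = 0.503).

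Subunits that belong to some of the complexes moved in both directions. Wdr82, a subunit of the SET1 complexes that binds the polymerase tail, fell by 0.23 (limma adjusted p = 0.00594, SE 0.0485), from 11.61 ± 0.0525 to 11.38 ± 0.0510 (SD, n = 4 each). Cxxc1, the SET1 subunit that reads unmethylated CpG, moved oppositely and rose by 0.19 (limma adjusted p = 0.0231, SE 0.0528), from 8.92 ± 0.0767 to 9.11 ± 0.0485 (SD, n = 4 each). Men1, the menin subunit of the MLL1 and MLL2 complexes, rose by 0.16 (limma adjusted p = 0.0349, SE 0.0490), from 9.18 ± 0.0392 to 9.34 ± 0.0641 (SD, n = 4 each). The Cxxc1 and Men1 increases were small, and their calls lay near the threshold and ended without any of several single arrays. Over 20 alternatives the differences stayed above 0, at 0.17 to 0.23 for Cxxc1 and 0.11 to 0.19 for Men1. For Cxxc1 the limma adjusted p was 0.0617 without luciferase array 2, 0.0501 without luciferase array 3, 0.0572 without luciferase array 4, 0.0611 without Ctr9 esiRNA array 1 and 0.0513 without Ctr9 esiRNA array 2 (0.00396 to 0.127 over 20 alternatives). For Men1 it was 0.0590 without luciferase array 2, 0.0928 without luciferase array 3, 0.0658 without luciferase array 4, 0.0801 without Ctr9 esiRNA array 1 and 0.0994 without Ctr9 esiRNA array 4 (0.00730 to 0.179 over 20 alternatives). Hcfc1, a host cell factor bound by several H3K4 complexes, read 10.96, 11.07, 11.26 and 11.29 in luciferase arrays 1 to 4 and 11.05, 11.11, 11.03 and 10.99 in Ctr9 esiRNA arrays 1 to 4. Luciferase arrays 3 and 4 were the highest, the groups overlapped, and the difference was -0.10 (95% interval -0.27 to 0.06, limma adjusted p = 0.379). Without luciferase arrays 1 and 2 it was -0.23 and passed (limma adjusted p = 0.0277, within 0.0277 to 0.825 over 20 alternatives). Over the 8 subunits, 4 fell, 2 rose and 2 did not pass. Among genes at least as bright as the dimmest member 24.0% fell and 21.6% rose.

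The upstream sequences of Rbbp5 and Wdr5, which fell together, of Kmt2c, the catalytic gene with the largest fall, and of Setd7, the gene with the largest rise, are shown for comparison. Each run is the 250 bases upstream of the RefSeq transcript start in GRCm38.p6, 5′ to 3′ on the gene's strand, and capitals mark matches on either strand to the GC box GGGCGG, the CCAAT box CCAAT, the ETS core CGGAAG, the NRF1 core GCATGCGC, the E-box CACGTG or the TATA box TATAAA. Neighbouring GC box matches can overlap. Rbbp5 lies at chr1:132477117-132477366, plus strand, Wdr5 at chr2:27514897-27515146, plus strand, Kmt2c at chr5:25498784-25499033, minus strand and Setd7 at chr3:51560824-51561073, minus strand.
Rbbp5: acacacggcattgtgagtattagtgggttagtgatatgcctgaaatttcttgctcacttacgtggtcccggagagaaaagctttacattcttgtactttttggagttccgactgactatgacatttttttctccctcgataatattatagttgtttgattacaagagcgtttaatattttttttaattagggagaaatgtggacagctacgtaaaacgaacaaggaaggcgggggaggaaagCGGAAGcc
Wdr5: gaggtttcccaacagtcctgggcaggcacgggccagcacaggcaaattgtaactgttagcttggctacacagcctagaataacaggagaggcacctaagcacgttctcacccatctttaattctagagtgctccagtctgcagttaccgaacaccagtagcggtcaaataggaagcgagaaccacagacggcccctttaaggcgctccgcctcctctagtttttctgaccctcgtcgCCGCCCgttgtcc
Kmt2c: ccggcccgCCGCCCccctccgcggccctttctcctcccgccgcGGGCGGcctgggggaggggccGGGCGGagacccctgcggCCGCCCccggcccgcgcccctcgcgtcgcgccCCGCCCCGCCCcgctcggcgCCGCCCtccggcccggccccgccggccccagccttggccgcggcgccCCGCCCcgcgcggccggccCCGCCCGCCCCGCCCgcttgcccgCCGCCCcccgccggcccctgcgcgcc
Setd7: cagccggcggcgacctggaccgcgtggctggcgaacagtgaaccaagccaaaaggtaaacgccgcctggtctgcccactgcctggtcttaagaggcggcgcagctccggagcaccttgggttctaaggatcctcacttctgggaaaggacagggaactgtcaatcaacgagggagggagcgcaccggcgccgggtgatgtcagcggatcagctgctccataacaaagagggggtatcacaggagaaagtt
The 4 windows differed in composition and motifs. The Rbbp5 window held 10 CpG and 1 ETS core, the Wdr5 window 12 CpG and 1 GC box, the Kmt2c window 48 CpG and 12 GC box matches, and the Setd7 window 17 CpG with none of the 6 motifs. RefSeq promoter windows were at hand for 28 of the 40 listed genes, and the first listed start was used where there were several. A GC box stood in 20 of the 28 (71.4%), against 32.9% of the windows of 27025 genes. Among the measured members it stood in 6 of 10 that fell, 5 of 7 that rose and 8 of 10 that did not pass. The median window of the 28 held 61.6% G and C and 19.5 CpG, against 52.0% and 6 over all genes. An ETS core stood in 6 of the 28 (21.4% against 13.8% of all windows), a CCAAT box in 8 (28.6% against 34.5%) and an E-box in 2 (7.14% against 6.05%). The letters of the TATA box (13.0% of all windows) and the NRF1 core (2.32%) were in none of the 28 windows. The windows of all genes were not matched to the members in signal or in CpG count.

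Setd7, which monomethylates H3K4 in vitro and also acts on many non-histone proteins, showed the largest change of all members. It read 8.15, 8.23, 8.23 and 8.13 in luciferase arrays 1 to 4 and 8.97, 9.13, 9.05 and 9.02 in Ctr9 esiRNA arrays 1 to 4, and rose by 0.86 (limma adjusted p = 2.12e-06, SE 0.0517), an increase of 1.81-fold. The 2 groups were separated by more than 0.7 units, against an SD of 0.0520 and 0.0690 (n = 4 each). A dimmer Setd7 probe set rose by less, 0.26, which brings the mean of both to 0.56. Smyd3, a SET and MYND domain enzyme reported to act on H3K4, H4K5 and cytoplasmic kinases, read 8.73, 8.78, 8.77 and 8.72 in luciferase arrays 1 to 4 and 8.15, 8.19, 8.30 and 8.29 in Ctr9 esiRNA arrays 1 to 4. The luciferase arrays were within 0.06 of each other and all above the Ctr9 esiRNA arrays, and Smyd3 fell by 0.51 (limma adjusted p = 4.74e-05, SE 0.0503). Its other probe set, near the bottom of the signal range at a mean of 3.67, differed by 0.16 (limma adjusted p = 0.0941, SE 0.0642). The mean of both Smyd3 probe sets was -0.18.

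Of the 3 H3K36 writers measured, Nsd1 fell and Smyd2 rose. Nsd1, which dimethylates H3K36, read 9.84, 9.95, 10.09 and 10.07 in luciferase arrays 1 to 4 and 9.62, 9.66, 9.69 and 9.69 in Ctr9 esiRNA arrays 1 to 4. Luciferase arrays 3 and 4 were the highest, array 1 the lowest of its group, and all 4 lay above the Ctr9 esiRNA arrays. Nsd1 fell by 0.32 (limma adjusted p = 0.00348, SE 0.0610), and so did a dimmer one of its 4 probe sets, by 0.42, while the others differed by -0.09 and -0.13. Smyd2, which methylates H3K36 and several non-histone proteins including p53, rose by 0.28 (limma adjusted p = 0.00352, SE 0.0530), from 9.58 ± 0.0777 to 9.85 ± 0.0487 (SD, n = 4 each). Setd2, the enzyme that trimethylates H3K36 while bound to the elongating polymerase, read 9.65, 9.63, 9.81 and 9.73 in luciferase arrays 1 to 4 and 9.83, 9.90, 9.81 and 9.84 in Ctr9 esiRNA arrays 1 to 4. The groups lay next to each other without overlapping, and the difference was 0.14 (95% interval 0.02 to 0.26, limma adjusted p = 0.0813). Setd2 passed without luciferase array 3 (limma adjusted p = 0.0400, within 0.0193 to 0.426 over 20 alternatives).

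Dot1l, the only known H3K79 methyltransferase, whose activity depends on ubiquitinated H2B, read 8.79, 8.74, 8.94 and 8.85 in luciferase arrays 1 to 4 and 8.64, 8.65, 8.63 and 8.64 in Ctr9 esiRNA arrays 1 to 4. The Ctr9 esiRNA arrays were nearly identical and all below the luciferase arrays, and Dot1l fell by 0.19 (limma adjusted p = 0.0221, SE 0.0519), a change of -12.4%. A second Dot1l probe set of like brightness differed by -0.19 (limma adjusted p = 0.123, SE 0.0806). The Dot1l call was thin. Its limma adjusted p was 0.0569 without luciferase array 3, 0.0508 without luciferase array 4 and 0.0525 without Ctr9 esiRNA array 3 (0.00488 to 0.144 over 20 alternatives), and without luciferase arrays 3 and 4 together the difference was -0.12.

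Of the 5 measured H3K9 writers 3 rose and 1 fell. Among genes at least as bright as the dimmest member 21.6% rose and 24.0% fell, and 5 genes are too few for a trend. Ehmt2 and Ehmt1, the G9a and GLP enzymes that work as a pair to dimethylate H3K9, both rose. Ehmt2 read 10.13, 10.06, 10.11 and 10.16 in luciferase arrays 1 to 4 and 10.33, 10.49, 10.30 and 10.43 in Ctr9 esiRNA arrays 1 to 4, and rose by 0.27 (limma adjusted p = 0.00389, SE 0.0538). Ehmt1 read 10.34, 10.40, 10.38 and 10.33 in luciferase arrays 1 to 4 and 10.54, 10.57, 10.53 and 10.58 in Ctr9 esiRNA arrays 1 to 4, and rose by 0.19 (limma adjusted p = 0.00705, SE 0.0424). In both genes every Ctr9 esiRNA array was above every luciferase array. The dimmer Ehmt2 probe set differed by 0.11 (limma adjusted p = 0.185, SE 0.0565). Suv39h2, which trimethylates H3K9 at constitutive heterochromatin, rose by 0.20 (limma adjusted p = 0.0183, SE 0.0521), from 8.37 ± 0.0288 to 8.57 ± 0.0834 (SD, n = 4 each), and the second of its 3 probe sets rose by 0.21 while the dimmest differed by -0.02. The Suv39h2 call ended without luciferase arrays 3 and 4 (limma adjusted p = 0.114, within 0.00460 to 0.114 over 20 alternatives). It ended without luciferase arrays 1 and 2 as well (0.0605). Setdb1, which silences retroelements and germline genes in ES cells, did not pass, at 0.05 (95% interval -0.07 to 0.16, limma adjusted p = 0.564). Its cofactor Trim28, which recruits Setdb1 to zinc finger proteins on DNA, read 13.69, 13.74, 13.77 and 13.79 in luciferase arrays 1 to 4 and 13.63, 13.62, 13.61 and 13.64 in Ctr9 esiRNA arrays 1 to 4. The Ctr9 esiRNA values were all lower, yet the difference of -0.12 (95% interval -0.22 to -0.03, limma adjusted p = 0.0615) did not pass. It passed under 5 of 20 alternatives (limma adjusted p from 0.000343 to 0.279), among them the mean of its 2 probe sets (0.0270) and a trended robust prior, which gave the lowest value.

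Setdb2, a relative of Setdb1, was the only one of the 5 measured H3K9 writers that fell. Setdb2 fell by 0.15 (limma adjusted p = 0.0365, SE 0.0460), from 8.44 ± 0.0343 to 8.29 ± 0.0510 (SD, n = 4 each). The Setdb2 call ended under rescaling with all 8 arrays kept, at a limma adjusted p of 0.0525 with arrays centred on their medians and 0.0576 with cyclic loess. It also ended in most repeats with 1 array fewer, the limma adjusted p being 0.0736 without luciferase array 1, 0.0867 without luciferase array 2, 0.0723 without luciferase array 3, 0.0856 without Ctr9 esiRNA array 1, 0.0885 without Ctr9 esiRNA array 3 and 0.0527 without Ctr9 esiRNA array 4 (0.00912 to 0.177 over 20 alternatives).

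Both H3K9 erasers of the Kdm3 family among the members fell. Jmjd1c, a relative read with the other erasers, rose by 0.27 (limma adjusted p = 0.0127, SE 0.0654). Kdm3a, which removes mono- and dimethylation from H3K9 and is known in ES cells as a target of Oct4, read 11.50, 11.54, 11.52 and 11.61 in luciferase arrays 1 to 4 and 11.06, 11.08, 11.03 and 11.09 in Ctr9 esiRNA arrays 1 to 4, and fell by 0.48 (limma adjusted p = 3.77e-05, SE 0.0452). Kdm3b read 9.62, 9.73, 9.62 and 9.66 in luciferase arrays 1 to 4 and 9.27, 9.19, 9.25 and 9.32 in Ctr9 esiRNA arrays 1 to 4, and fell by 0.40 (limma adjusted p = 0.000220, SE 0.0489), with -0.48 on its second probe set. In neither gene did the groups overlap. The Kdm4 family, which acts on trimethylated H3K9 and H3K36, split. Kdm4a read 8.95 to 9.09 in the luciferase arrays and 8.56 to 8.74 in the Ctr9 esiRNA arrays, and fell by 0.35 (limma adjusted p = 0.00113, SE 0.0551). The other, very dim Kdm4a probe set differed by 0.01, so the mean of both was -0.17. Kdm4c, known in ES cells for demethylating H3K9 near Nanog, read 9.20, 9.14, 9.12 and 8.94 in luciferase arrays 1 to 4 and 9.45, 9.47, 9.48 and 9.48 in Ctr9 esiRNA arrays 1 to 4, and rose by 0.37 (limma adjusted p = 0.00109, SE 0.0586). Here luciferase array 4 was the lowest, and the Ctr9 esiRNA arrays lay within 0.04 of each other. Kdm4b did not pass, at 0.04 (95% interval -0.07 to 0.14, limma adjusted p = 0.668). Kdm4d, a very dim relative read with the other erasers at a mean of 4.47, differed by -0.08 (limma adjusted p = 0.692).

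The H3K4 erasers also split. Kdm5b, which removes trimethylation from H3K4 and is abundant in ES cells, read 11.91, 11.92, 11.69 and 11.69 in luciferase arrays 1 to 4 and 11.57, 11.44, 11.40 and 11.50 in Ctr9 esiRNA arrays 1 to 4. All Ctr9 esiRNA arrays were lower, but the luciferase arrays lay in pairs, with 1 and 2 more than 0.2 above 3 and 4. Kdm5b fell by 0.32 (limma adjusted p = 0.00719, SE 0.0710), and its other 3 probe sets fell by 0.27, 0.66 and 0.25. Without luciferase arrays 1 and 2 the difference was -0.21 and missed the threshold (limma adjusted p = 0.0605, the highest of a range from 0.000126 to 0.0605 over 20 alternatives). Kdm5a, which acts on the same mark, read 9.67, 9.71, 9.63 and 9.49 in luciferase arrays 1 to 4 and 9.95, 9.90, 9.82 and 9.81 in Ctr9 esiRNA arrays 1 to 4, and rose by 0.25 (limma adjusted p = 0.0134, SE 0.0607). Luciferase array 4 was the lowest, and the groups did not overlap. None of the other 5 Kdm5a probe sets passed, and the mean of all 6 differed by 0.0222 (limma adjusted p = 0.872, within 0.000761 to 0.872 over 20 alternatives), so the Kdm5a call rests on its brightest probe set. It also ended without luciferase arrays 3 and 4 (0.0890).

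Kdm1a, the LSD1 enzyme that removes mono- and dimethylation from H3K4 within the CoREST complex, read 12.57, 12.60, 12.49 and 12.51 in luciferase arrays 1 to 4 and 12.41, 12.37, 12.41 and 12.42 in Ctr9 esiRNA arrays 1 to 4. The Ctr9 esiRNA arrays were all lower by a little, and Kdm1a fell by 0.14 (limma adjusted p = 0.0451, SE 0.0451). The second Kdm1a probe set differed by -0.15 (limma adjusted p = 0.0608, SE 0.0520). The Kdm1a call ended under rescaling with all 8 arrays kept, at a limma adjusted p of 0.0707 with arrays centred on their medians and 0.0853 with quantile normalization. It also ended without any single array except luciferase array 3, at 0.102 without luciferase array 1, 0.107 without luciferase array 2, 0.0589 without luciferase array 4, 0.0748 without Ctr9 esiRNA array 1, 0.110 without Ctr9 esiRNA array 2, 0.0818 without Ctr9 esiRNA array 3 and 0.0772 without Ctr9 esiRNA array 4 (0.000777 to 0.248 over 20 alternatives). Kdm1b, its relative with a role in oocytes, did not pass, at 0.12 (95% interval -0.02 to 0.26, limma adjusted p = 0.194).

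The remaining erasers did not pass. Kdm2a, a CpG-binding H3K36 demethylase, differed by 0.08 (95% interval -0.10 to 0.26, limma adjusted p = 0.554), and of its other 6 probe sets a dim one fell by 0.20. Kdm6a, the X-linked UTX enzyme that removes H3K27 methylation and is a subunit of the Kmt2c and Kmt2d complexes, read 9.66, 9.59, 9.60 and 9.64 in luciferase arrays 1 to 4 and 9.57, 9.48, 9.41 and 9.48 in Ctr9 esiRNA arrays 1 to 4. The Ctr9 esiRNA arrays were all lower, but the difference of -0.13 (95% interval -0.24 to -0.03, limma adjusted p = 0.0688) missed the threshold. It passed without Ctr9 esiRNA array 1 (limma adjusted p = 0.0397, within 0.0182 to 0.260 over 20 alternatives). A second Kdm6a probe set of like brightness differed by 0.14 (limma adjusted p = 0.244, SE 0.0770). Kdm6b, the other H3K27 demethylase, differed by 0.06 (95% interval -0.08 to 0.20, limma adjusted p = 0.568). Over all 12 erasers 5 fell and 2 rose (58.3%), and over all 17 measured writers 5 fell and 5 rose (58.8%). Among the 8150 genes at least as bright as the dimmest member 45.7% passed, 24.0% lower and 21.6% higher. With so few erasers and writers, these counts do not set either class apart from such genes.

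The 38 genes were covered by 86 probe sets, of which 26 were lower and 11 higher (43.0% in all, against 24.9% of all probe sets). The 24.9% is not matched for brightness. For genes, the share was 30.8% over all and 45.7% among those at least as bright as the dimmest member. Of the 26 genes with several probe sets, 16 passed on the brightest, and in 8 of these a further probe set passed as well. These 8 were Kmt2c, Kdm5b, Ash2l, Wdr5, Kdm3b, Nsd1, Setd7 and Suv39h2. In 12 of the 16 all probe sets lay on the same side of 0. Opposite calls within one gene did not occur. For Kdm2a and Kdm6a a dim probe set passed where the brightest did not.

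**Figure D4:**
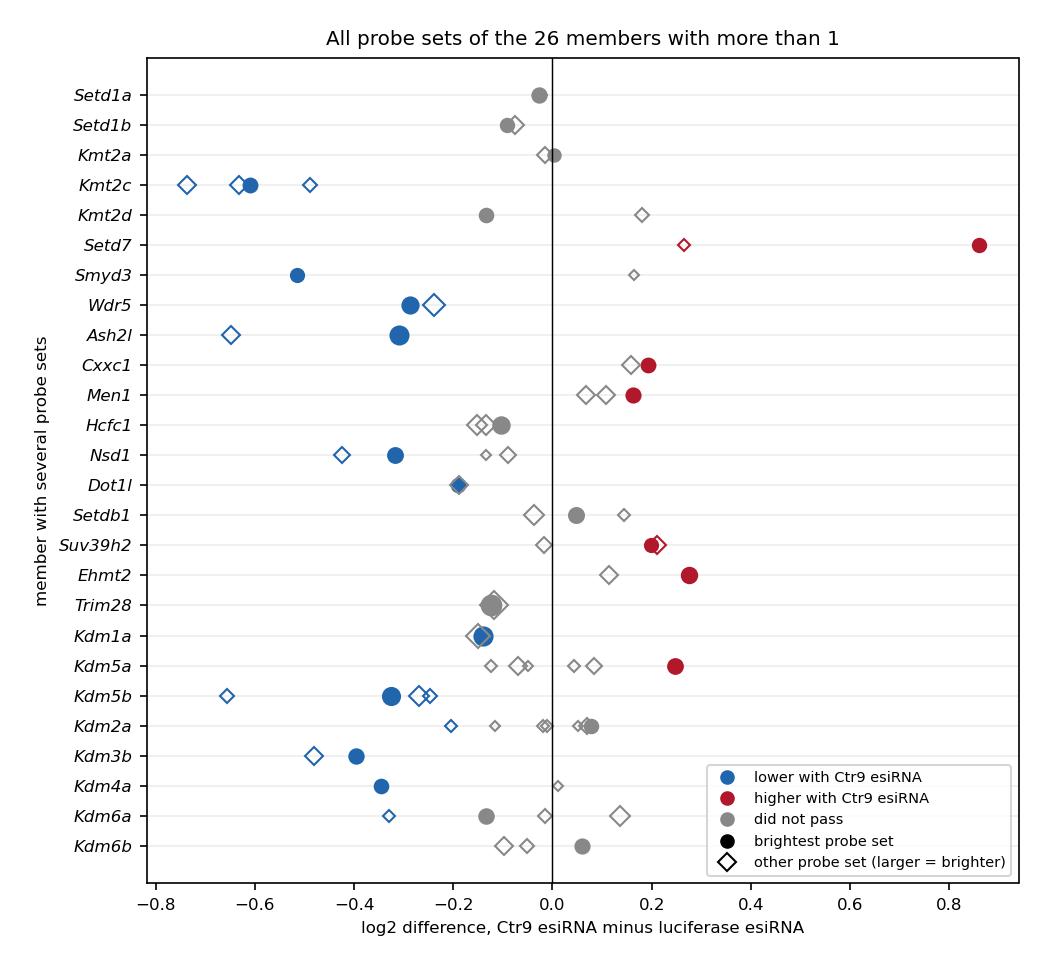
Log2 difference of every probe set of the 26 members with more than 1, the brightest as a filled circle and the others as open diamonds whose size follows their mean signal; blue and red mark probe sets that were lower or higher. All 4 probe sets of Kmt2c and of Kdm5b lie left of 0, and for Kdm5a only the brightest passed.

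Whether related enzymes moved apart was examined by taking the difference of 2 related genes within each array and comparing it between the groups. In 8 of 13 pairs the 4 luciferase and 4 Ctr9 esiRNA values did not overlap (exact two-sided permutation p = 0.0286 for each, the smallest that 4 against 4 arrays allow, and 0.0464 after Benjamini-Hochberg adjustment over the 13 pairs). The pairs were chosen with the members' values known. For Smyd2 and Smyd3, Kdm4a and Kdm4c, and Kdm5a and Kdm5b, the groups of both genes were already separate in opposite directions. For these pairs the outcome was fixed in advance, so the p-value adds nothing to the calls of the single genes. The adjusted value of 0.0464 follows only from how many pairs reached the smallest p, and the pairs fixed in advance are counted among them. The adjustment was not repeated without those pairs, so it does not show that the others pass. Smyd2 shifted against Smyd3 by 0.79 (SE 0.0548), the largest of the 13 on the brightest probe sets. Kdm4a shifted against Kdm4c by -0.72 (SE 0.0934) and against Kdm4b by -0.38 (SE 0.0824), and Kdm4b against Kdm4c by -0.33 (SE 0.0532). Kdm5a shifted against Kdm5b by 0.57 (SE 0.0541), and Kmt2c against Kmt2d by -0.48 (SE 0.0690). Smaller shifts separated Kdm1a from Kdm1b (-0.26, SE 0.0409) and Setdb1 from Setdb2 (0.20, SE 0.0544). Kdm6a and Kdm6b (-0.19, exact permutation p = 0.0571), Kdm3a and Kdm3b (-0.0819, exact p = 0.0857) and Ehmt1 and Ehmt2 (-0.0797, exact p = 0.171) did not pass. Neither did Setd1a and Setd1b (0.0634, exact p = 0.543) or Kmt2a and Kmt2b (0.0110, exact p = 0.83). After adjustment over the 13 pairs these 5 exact p-values ran from 0.0825 to 0.83. These values rest on the brightest probe sets. With the mean of each gene's probe sets, an alternative chosen after seeing the data, 7 pairs stayed at the smallest exact permutation p, but none passed after adjustment over the 13 pairs (0.0531 at the lowest). Smyd2 against Smyd3 then shifted by 0.45, Kdm4a against Kdm4c by -0.54, Kdm5a against Kdm5b by 0.40 and Kmt2c against Kmt2d by -0.64, the largest on that scale. Kdm4a against Kdm4b shifted by -0.20 (exact permutation p = 0.114).

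**Figure D5:**
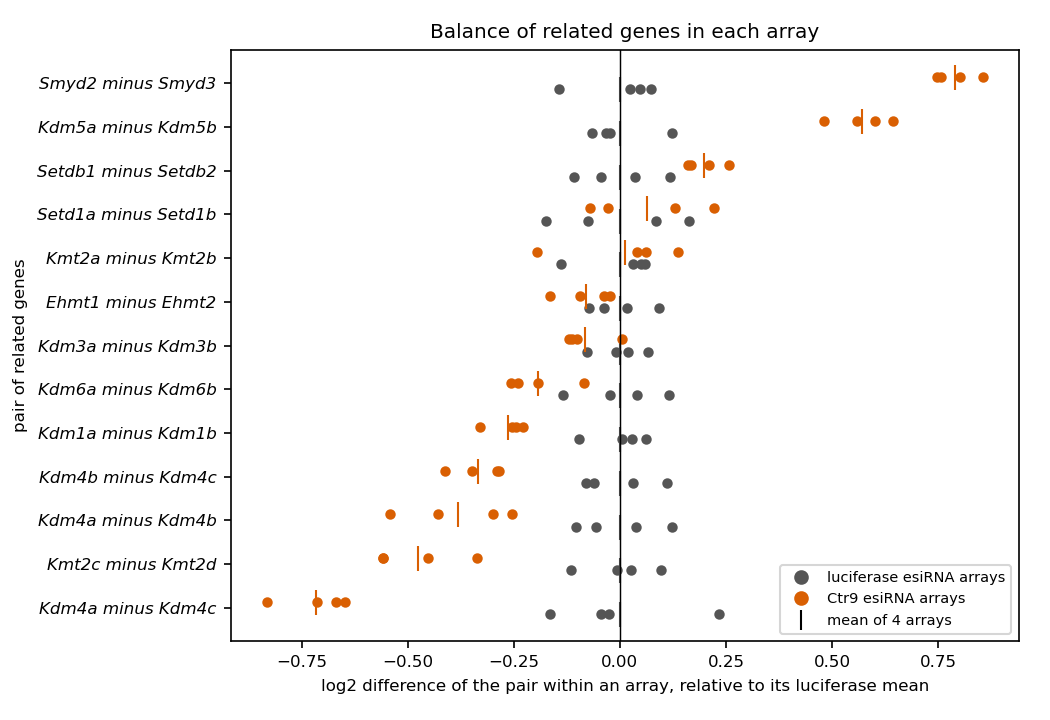
Log2 difference between the brightest probe sets of 2 related genes within each array, for 13 pairs, relative to the pair's mean in the luciferase arrays; points are arrays and ticks are means of 4. Smyd2 against Smyd3 lies 0.79 to the right and Kdm4a against Kdm4c 0.72 to the left of the luciferase mean, and the groups overlap for the 5 pairs that did not pass.

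Other genes of histone lysine methylation were read from a list of 73, of which 72 were measured. Of these, 11 were lower and 16 higher (37.5%, against 30.8% of all genes), at a median difference of 0.025. Among the 56 of them at least as bright as the dimmest member 41.1% passed, below the 45.7% of all genes that bright, so their count is no excess over the background. Among 18 other writers 4 fell and 3 rose. Kmt5c, which trimethylates H4K20, fell by 0.60 (limma adjusted p = 1.60e-05, SE 0.0493), and Setd6, which acts mainly on non-histone proteins, fell by 0.34 (limma adjusted p = 0.000520, SE 0.0472). Nsd2, the relative of Nsd1 that dimethylates H3K36, rose by 0.43 (limma adjusted p = 0.000595, SE 0.0618), and Mecom, a dim gene of the PRDM family here, rose by 0.48 (limma adjusted p = 0.00157, SE 0.0809). Among 14 other erasers 5 rose and 1 fell. The latter was Kdm5c, a relative of Kdm5a and Kdm5b, at -0.19 on the brightest of its 9 probe sets (limma adjusted p = 0.0258, SE 0.0537). Kdm2b, a CpG-binding H3K36 demethylase that recruits a Polycomb complex, rose by 0.41 (limma adjusted p = 0.000246, SE 0.0519). Jmjd6 (0.24, SE 0.0470), Riox2 (0.23, SE 0.0468) and Kdm8 (0.32, SE 0.0670), JmjC domain oxygenases, also rose.

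Of 40 partners of these enzymes 6 were lower and 8 higher (35.0%, against 30.8% of all genes), and of the 34 at least as bright as the dimmest member 41.2% passed, against 45.7% of all genes that bright. The following values describe single genes. Of 10 partners of H3K4 and H3K79 enzymes 2 fell and 1 rose: Mllt6, of the AF10 family, fell by 0.68 (limma adjusted p = 1.60e-05, SE 0.0564), its relative Mllt10, a cofactor of Dot1l, fell by 0.28 (limma adjusted p = 0.000861, SE 0.0423), and Psip1, a chromatin reader bound by menin, rose by 0.25 (limma adjusted p = 0.00143, SE 0.0409). Of 7 enzymes of H2B ubiquitination 3 rose and 1 fell. The conjugating enzyme Ube2b rose by 0.36 (limma adjusted p = 0.000261, SE 0.0449), a call that ended with the mean of its 4 probe sets (0.0742, limma adjusted p = 0.397, the highest of its alternatives). The deubiquitinases Usp44 (0.33, SE 0.0655) and Usp22 (0.22, SE 0.0481) rose, and the ligase subunit Rnf40 fell by 0.20 (limma adjusted p = 0.00894, SE 0.0455). Of 13 H3K9 readers and partners 3 rose and 2 fell. Zfp57, a zinc finger protein that brings Trim28 to imprinted loci, fell by 0.60 (limma adjusted p = 3.21e-05, SE 0.0555), and Tasor, of the HUSH silencing complex, fell by 0.38 (limma adjusted p = 0.000922, SE 0.0579). Its HUSH partner Pphln1 rose by 0.45 (limma adjusted p = 0.00103, SE 0.0709), and Zfp644, a partner of the G9a and GLP pair, rose by 0.27 (SE 0.0592). The calls of Usp22, Rnf40 and Zfp644 ended without luciferase arrays 1 and 2, at limma adjusted p = 0.0611, 0.0516 and 0.0503, and that of Rnf40 also without arrays 3 and 4, at 0.0510. Over the members and all other genes examined singly, 8 calls ended without luciferase arrays 1 and 2 and 8 without arrays 3 and 4. Of 10 CoREST partners 1 rose and 1 fell. Phf21a, the reader of unmethylated H3K4 in that complex, rose by 0.67 (limma adjusted p = 5.77e-06, SE 0.0476), and the corepressor Rcor2 fell by 0.37 (limma adjusted p = 0.00343, SE 0.0709).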

How the data were processed

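The authors deposited log2 probe set signals of 8 one-colour arrays, 4 a group. GCOS 1.4 and RMA are the tools named, per the submitters' processing notes; no settings are stated there. RMA equalises the arrays' distributions and compresses differences of dim signals. The log2 values were used as deposited. The 64 control probe sets were left out, and symbols were updated with a GRCm38.p6 table matching 34741 of 34945 single-symbol probe sets. Groups were compared with lmFit and eBayes of limma 3.58.1 (R 4.3.3) on 45037 probe sets, with Benjamini-Hochberg adjustment over all of them. The fit was tested on simulated data. SE and 95% intervals are limma's moderated ones. Named genes are the members, up to 4 genes per other list with the smallest adjusted p, Ctr9, and Pou5f1, Nanog and Sox2, of which the last 3 fell by 0.20, fell by 0.44 and differed by -0.11 without passing. Jmjd1c, Kdm4d and Kdm5c, as relatives of members, and some cell markers were added, and alternatives were not run for them singly. Members, lists and tests were chosen with earlier results of these data known. Same-numbered samples of the 2 groups did not deviate together (correlations of -0.0776 to 0.0625). Alternatives were filters, scalings, priors, array weights, a block, left-out arrays and averaged probe sets per gene. Figures were drawn with matplotlib 3.10.9.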

Additional observations from a re-analysis of the deposited data

Results flagged for a closer look

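In 3 of 126 groups of 4 arrays examined, 1 array stood far from the other 3 by Dixon's ratio (2.38%, where chance gives about 1 in 20). Wdr5 read 10.71 in Ctr9 esiRNA array 1, against 10.76 to 10.77 in the others. Ube2b read 10.90 in luciferase array 1, against 10.80 to 10.81. Rcor2 read 10.28 in Ctr9 esiRNA array 2, against 10.19 to 10.20. In all 3 genes the groups stayed apart.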

How the results depend on the processing

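The counts of 14 lower and 9 higher members stayed within 1.5 times under the alternatives run, at 11 to 16 and 6 to 10, apart from a threshold of 0.01, which left 11 lower and 5 higher. Leaving out single arrays gave 11 to 13 lower and 7 to 9 higher members. Of the 23 members that passed, 15 kept their call and direction under all 20 other alternatives and none changed sign, while 8 lost the call under at least 1 (Cxxc1, Men1, Dot1l, Setdb2, Suv39h2, Kdm1a, Kdm5a and Kdm5b). Of the 15 that did not pass, 5 passed under at least 1 (Kmt2d, Hcfc1, Setd2, Trim28 and Kdm6a). Among the other 72 genes the lower count went from 11 to 7 without luciferase arrays 3 and 4 and stayed at 8 to 16 under the rest, and the higher count was 13 to 19 against 16. The Ctr9 difference turned from -0.09 to 0.0273 with the mean of its 5 probe sets. With the replicate number as a block, 11 members were lower and 7 higher, and 10 and 14 of the other genes; the numbers do not pair the samples, and only replicates 1 and 3 correlated best with their own number. The calls of Setdb2 and Kdm1a also ended under rescaling. Rescaling moved the median over genes by no more than 0.015. Signal over background was not measured, so changes of dim probe sets are uncertain in size. The cause of these changes was not tested.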
